A study of Homo sapiens with 4 samples.

Results

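H441 is an established epithelial line from a human lung adenocarcinoma, known for making surfactant protein A, and this comparison set its cells grown in human plasma-like medium (HPLM) against the same cells grown in RPMI-1640. It used the 6 H441 libraries of the 12 libraries in the series, 3 per medium, which belong to 2 of its 4 samples. Labels alone decided which libraries were taken, but the comparison itself was chosen with earlier results of these data known. Both groups were labelled wild type (WT), were kept for 7 days in their medium and shared a supplement of 10% fetal bovine serum and 1% P/S (the usual short form for penicillin and streptomycin), so the medium is the only labelled difference. Poly(A) RNA was sequenced. The libraries are numbered within each medium and the labels do not say whether they came from separate cultures, so that p-values measure only the spread between libraries, which may be technical. A single tumour line, H441 stands for neither normal alveolar cells nor lung cancer in general. Expression is given in TPM (a transcript's share of its library, scaled by gene length and to a fixed total), which allows levels to be compared between genes. By its title, the study asks how supplied amino acids affect mRNA brought into cells by lipid nanoparticles.

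RPMI-1640 is a classical medium that holds glucose and many amino acids well above their levels in blood, with little calcium and much phosphate. HPLM was composed to hold salts, glucose, amino acids and other polar metabolites near their levels in human plasma, and it includes metabolites that RPMI-1640 lacks, such as uric acid. Cells read such supplies through several known systems. The kinase GCN2 senses uncharged tRNA and, through the factor ATF4, raises amino acid synthesis and transport, while the unfolded protein response (UPR) watches over folding in the endoplasmic reticulum (ER) and the SREBP factors follow sterol supply.

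Recovered read totals ran from 15.2 to 24.3 M per library. The first principal component of the log2 values took 55.1% of the variance and separated the media, and the second, with 13.2%, lay mostly within the RPMI-1640 libraries. There, libraries 2 and 3 stood at its ends. Library 2 had the fewest reads, and the mitochondrially encoded share of TPM was 24.1% in library 2 and 28.8% in library 3. What set this component was not tested. Libraries of 1 medium differed by 1.81 to 6.25 times the variance expected from sampling of reads (chi-square per degree of freedom), so none was a copy of another. All 6 epithelial markers were above 1 TPM, with a summed level of 6322 to 6639 TPM in RPMI-1640 and 7837 to 8310 TPM in HPLM. Of 13 lung epithelial markers, 4 never reached 1 TPM in any library (SFTPC, SFTPD, SCGB1A1 and SCGB3A2), and the summed level of the 13 was lower in HPLM, 1234 to 1336 TPM against 2939 to 3030 TPM in RPMI-1640. That sum is weighted toward high members such as SFTPA2, which fell, and does not stand for each marker. SFTPB rose and NKX2-1 was not called, as described below. Of other markers, 9 of 12 fibroblast, 7 of 9 endothelial, 4 of 14 leukocyte and 3 of 7 colonic ones never reached 1 TPM in any library. The summed level of the leukocyte list was 20 to 37.3 TPM in RPMI-1640 and 26.1 to 35.7 TPM in HPLM.

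Of 58051 gene identifiers, 16458 reached 1 TPM in at least 3 of the 6 libraries and were tested with limma on log2(TPM + 1). At an adjusted p under 0.05, 7404 genes were called (45% of those tested). Of these, 5546 rose in HPLM (33.7%) and 1858 fell (11.3%). A log2 change of at least 1, that is 2-fold, was reached by 482 raised genes (2.93%) and 108 lowered genes (0.656%). In none of these 590 genes did the values of the media overlap, but the choice by p-value and size of change made that likely beforehand. The shares just given are the background against which each group of genes below is read. Changes in RNA per cell and in the share of cells in some state cannot be told apart in such bulk libraries.

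TPM values are parts of a fixed total, and the share taken by mitochondrially encoded genes fell from 26.3% in RPMI-1640 to 19% in HPLM, so the median gene stood 0.14 higher in HPLM on the log2 scale. By library that share ran from 24.1% to 28.8% in RPMI-1640 and from 17.5% to 21.7% in HPLM. With the TMM method, which scales libraries so that most genes do not differ, the median change was 0.00, and 3701 genes rose while 3704 fell. All 1858 lowered genes and 3701 of the 5546 raised genes kept their call under TMM. Raised genes made up 74.9% of the calls on the TPM scale, 50% under TMM, 54.4% when mitochondrially encoded genes were left out, and 43.5% when each library was centred on its median. Counts of raised and lowered genes in a group are therefore given on the TPM scale and, after it, under TMM. The second measure, the scaled counts in the other deposited table, held 450 of the 590 genes changed 2-fold. All 450 moved in the same direction there, and edgeR called all 450 in that direction on the reads recovered from it. Those counts come from the same libraries, so the match is no independent test. The rest of the 590 genes could not be compared.

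**Figure D1:**
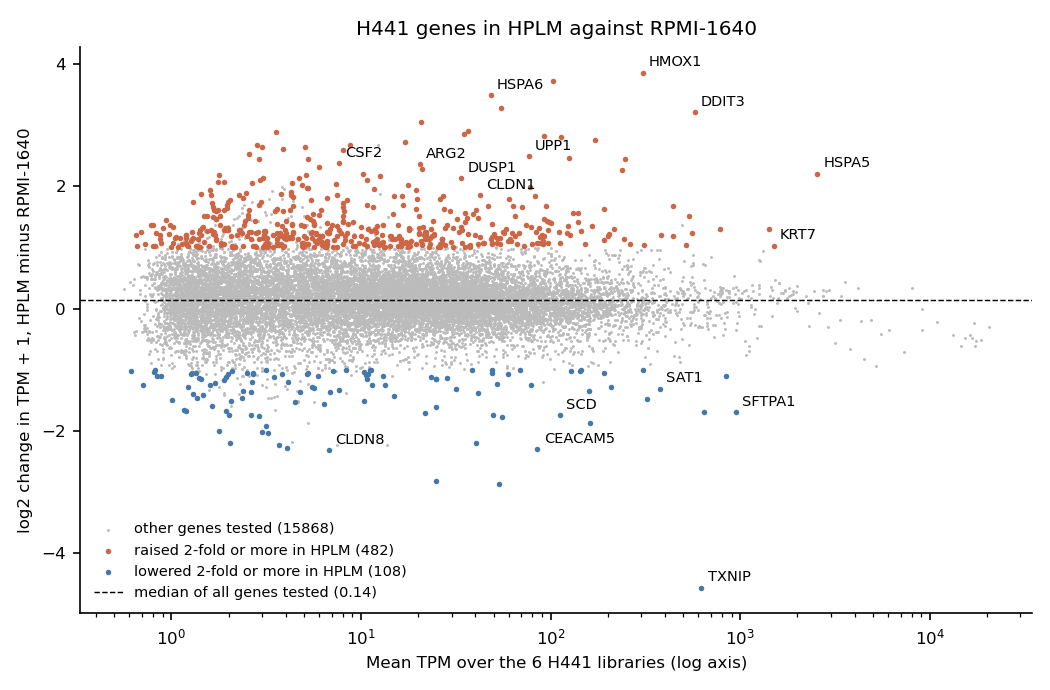
Log2 change in TPM + 1 (HPLM minus RPMI-1640, vertical axis) against the mean TPM over the 6 libraries (horizontal log axis) for the 16458 genes tested. The 482 genes raised 2-fold or more are orange and the 108 lowered 2-fold or more are blue, and the dashed line marks the median of all genes at 0.14.

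**Figure D2:**
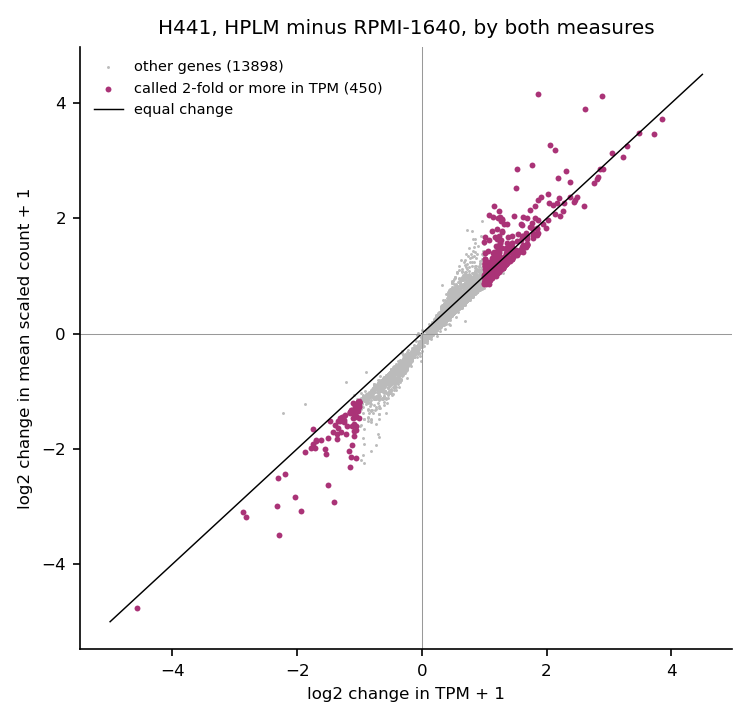
Log2 change in mean scaled count + 1 (vertical axis) against log2 change in TPM + 1 (horizontal axis) for the genes that both tables hold. All 450 genes called at 2-fold or more in TPM, in purple, keep their direction, on the same side of both zero lines.

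The genes that rose most included known targets of stress factors that bind short DNA elements near the start of transcription, so the promoters of the tested genes were searched for the letters of such elements. The window ran from 250 bases before to 50 after the start in RefSeq's promoter table (build GRCh38.p14), both strands were read, and 9757 protein-coding genes tested had an entry. The composite element of CHOP and ATF4, searched as TGATGNAA, was found in 1.73% of these promoters, in 7.32% of the 205 promoters of genes raised 2-fold or more (15 promoters) and in 4.55% of the 44 promoters of genes lowered 2-fold or more (2 promoters). Among the cytosolic aminoacyl-tRNA synthetases 6 of 19 promoters held it (31.6%), and among the ATF4 target list 6 of 32 (18.8%). The ER stress element, searched as CCAAT, 9 free bases and CCACG, was in 0.143% of the tested promoters and in 7 of 27 promoters of the UPR list (25.9%). The heat shock element, searched as GAA, TTC and GAA with 2 free bases between them, was in 0.307% of tested promoters, in 4 of 21 of the heat shock list (19%) and in 1 of the 205 promoters of genes raised 2-fold or more (0.488%), a share near that of all tested. The ER stress element was in 3 of those 205 (1.46%), and neither was in any of the 44 of genes lowered 2-fold or more. Other elements searched stood in the following shares of the promoters tested and of those raised 2-fold or more: the cyclic AMP response element TGACGTCA in 3.3% and 4.39%, the sterol element TCACNCCAC in 1.14% and 1.46%, the antioxidant element TGACNNNGC in 15.2% and 17.1%, the E-box CACGTG in 10.1% and 13.7%, AP-1 as TGANTCA in 4.62% and 9.27%, and the metal element TGCNCNC in 63.2% and 58%. Of the promoters of genes lowered 2-fold or more, 15.9% held the AP-1 letters (7 of 44). A pair of E-boxes 5 bases apart was in 1 tested promoter. A match is a run of letters and not a measured binding site, and these lists were drawn up from what is known of such genes. Stretches upstream of the start are shown for some genes tested, with the element in capitals, read 5′ to 3′ along the gene's strand. Values follow for all of them but ASNS, CHAC1 and AARS1. On genes with the element on the other strand, it reads as its reverse complement. The stretch of ASNS lies at chr7:97872409-97872536 on the minus strand, CHAC1 at chr15:40953221-40953329 on the plus strand, AARS1 at chr16:70289626-70289753 on the minus strand and SULT1E1 at chr4:69860174-69860301 on the minus strand, for the composite element. That of HSPA5 lies at chr9:125241344-125241469 on the minus strand, CRELD2 at chr22:49918494-49918632 on the plus strand and FICD at chr12:108515063-108515201 on the plus strand, for the ER stress element. That of HSPA6 lies at chr1:161524406-161524538 on the plus strand and HSPA8, with 2 elements, at chr11:123062137-123062386 on the minus strand, for the heat shock element.
ASNS: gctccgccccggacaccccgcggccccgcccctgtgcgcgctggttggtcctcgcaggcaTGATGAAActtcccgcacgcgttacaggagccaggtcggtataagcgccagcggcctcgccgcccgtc
CHAC1: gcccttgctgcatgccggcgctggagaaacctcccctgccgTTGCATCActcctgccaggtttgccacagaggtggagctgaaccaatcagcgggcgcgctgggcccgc
AARS1: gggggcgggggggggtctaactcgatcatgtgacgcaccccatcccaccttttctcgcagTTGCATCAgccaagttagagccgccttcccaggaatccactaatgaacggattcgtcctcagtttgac
SULT1E1: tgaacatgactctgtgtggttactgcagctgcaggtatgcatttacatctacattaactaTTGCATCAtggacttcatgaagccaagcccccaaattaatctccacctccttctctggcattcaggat
HSPA5: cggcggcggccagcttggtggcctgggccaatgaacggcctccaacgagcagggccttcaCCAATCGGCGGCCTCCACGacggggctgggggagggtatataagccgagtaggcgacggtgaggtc
CRELD2: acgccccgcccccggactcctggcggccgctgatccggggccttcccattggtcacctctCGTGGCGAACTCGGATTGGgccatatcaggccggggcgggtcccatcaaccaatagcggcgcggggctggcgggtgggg
FICD: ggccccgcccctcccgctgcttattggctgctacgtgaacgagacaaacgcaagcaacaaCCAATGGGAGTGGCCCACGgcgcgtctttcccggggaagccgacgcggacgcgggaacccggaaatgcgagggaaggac
HSPA6: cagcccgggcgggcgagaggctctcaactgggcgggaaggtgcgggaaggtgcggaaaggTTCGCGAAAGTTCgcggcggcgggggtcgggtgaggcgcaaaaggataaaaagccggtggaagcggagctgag
HSPA8: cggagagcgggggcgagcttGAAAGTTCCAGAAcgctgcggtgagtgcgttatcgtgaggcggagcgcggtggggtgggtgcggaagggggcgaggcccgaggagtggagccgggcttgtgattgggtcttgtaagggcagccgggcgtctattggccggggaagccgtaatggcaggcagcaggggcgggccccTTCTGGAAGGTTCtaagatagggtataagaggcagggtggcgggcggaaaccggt

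The genes of the integrated stress response, in which ATF4 and CHOP raise amino acid supply and stress regulators, rose in HPLM. Of 40 members tested, 34 rose and 1 fell (33 and 2 under TMM), 16 rose 2-fold or more and none fell that far, and the median log2 change was 0.96 against 0.14 over all genes. Regulators led the group. DDIT3, which encodes CHOP, stood at 109, 113 and 109.5 TPM in the RPMI-1640 libraries and 1055, 1007 and 1050 TPM in the HPLM libraries. NUPR1, a small chromatin protein induced by stress, measured 3.78, 3.88 and 4.17 TPM and 21.9, 19.7 and 22.4 TPM, a log2 change of 2.17 ± 0.07 (SE, adjusted p = 7.45e-05). Both genes had their lowest HPLM library far above their highest RPMI-1640 library. ATF4 mRNA itself, at 721 ± 10.6 and 781 ± 18.7 TPM (mean ± SD, n = 3), was not called (log2 change 0.12, adjusted p = 0.0851), and under TMM its change was -0.04, of the other sign. The partners of these factors moved further: CEBPG, which pairs with ATF4, rose by 1.24 and CEBPB by 1.07 on the log2 scale. JDP2, a repressor of the same family, rose by 0.98. ATF3, a factor that ATF4 is known to induce, measured 10.1, 9.19 and 8.69 TPM and 100.3, 101 and 98.9 TPM. A microRNA entry within the DDIT3 locus on chromosome 12, MIR616, read 14.1 ± 4.48 and 192 ± 18 TPM, but a poly(A) library cannot separate it from the transcript of its host.

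Enzymes and carriers of amino acids made up the middle of the group. CTH, the last step of cysteine synthesis from methionine, stood at 84.5, 83.2 and 83.7 TPM in RPMI-1640 and 208, 191 and 215 TPM in HPLM (log2 change 1.27 ± 0.06, adjusted p = 1.55e-04). The mitochondrial PEP carboxykinase PCK2 measured 34.2, 34.5 and 30.1 TPM against 97.1, 93.7 and 97.4 TPM, a rise of 1.52 ± 0.07. Of 18 amino acid transporters tested, 12 rose and 1 fell (9 and 3 under TMM). They included SLC6A9, which carries glycine (10.7 ± 0.715 to 23.7 ± 1.51 TPM), SLC7A1, which carries arginine and lysine (67.0 ± 6.38 to 134 ± 5.29 TPM), and the neutral amino acid carriers SLC38A1 (log2 change 0.91), SLC38A2 (0.82) and SLC1A5 (0.66). SLC3A2, the shared heavy chain of several exchangers, rose from 247 ± 13.2 to 482 ± 17.6 TPM. The member that fell was SLC6A6, a carrier of taurine, at 66.5, 68.3 and 65.5 TPM in RPMI-1640 and 31.8, 31.3 and 31.8 TPM in HPLM. Of the enzymes that load tRNA with amino acids, 17 of 24 cytosolic synthetases and partners rose and 1 fell (17 and 4 under TMM), with a median of 0.54. WARS1, for tryptophan, rose by 0.91, NARS1, for asparagine, by 0.76 and SARS1, for serine, by 0.69. Of the 17 mitochondrial synthetases, 5 rose and 1 fell, and 1 rose and 4 fell under TMM. The methionine enzyme MARS2 rose by 0.68. SULT1E1, an estrogen sulfotransferase on no list whose promoter was shown for its composite element, stood at 0.378, 0.579 and 0.520 TPM in RPMI-1640 and 6.10, 5.79 and 4.92 TPM in HPLM.

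**Figure D3:**
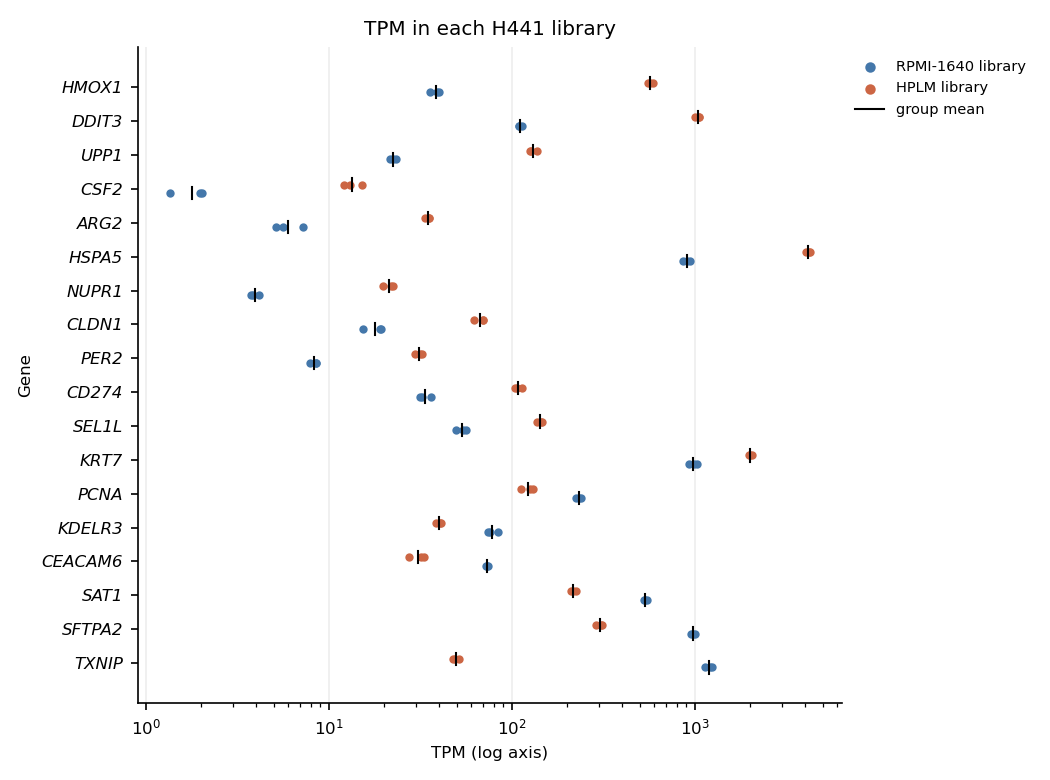
TPM of 18 genes in each library (horizontal log axis), RPMI-1640 in blue and HPLM in orange, with the group mean as a bar. In each gene shown the 3 HPLM values lie apart from the 3 RPMI-1640 values, and all were picked from the genes called.

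Arginine, uridine and polyamine enzymes gave some of the clearest single changes outside the stress regulators. ARG2, the mitochondrial arginase that splits arginine into ornithine and urea, stood at 7.20, 5.15 and 5.61 TPM in RPMI-1640 and 35.2, 33.8 and 35.4 TPM in HPLM, a 5.82-fold difference of the means (log2 change 2.37 ± 0.11, adjusted p = 1.71e-04). ODC1, which turns ornithine into the polyamine putrescine, measured 174, 179 and 156 TPM and 358, 343 and 352 TPM, a rise of 1.05 ± 0.07. SAT1, the acetylase that starts polyamine breakdown, went the other way, from 534, 527 and 550.1 TPM to 215, 211 and 223 TPM, and fell by 1.31 ± 0.05 (adjusted p = 1.16e-04). Of the 13 polyamine genes tested 5 rose and 3 fell (4 and 6 under TMM). The spermidine synthase SRM rose by 0.48, the spermine oxidase SMOX by 0.70 and DOHH, which hydroxylates the polyamine-derived residue of EIF5A, by 0.65, while OAZ2, an antizyme that marks ODC1 for breakdown, fell by 0.54. UPP1, which splits uridine into uracil and ribose 1-phosphate, stood at 21.7, 23.3 and 22.4 TPM in RPMI-1640 and 128, 126 and 137 TPM in HPLM (5.81-fold, log2 change 2.49 ± 0.06, adjusted p = 3.91e-05). No other of the 19 pyrimidine genes tested changed 2-fold. Among 23 purine genes, XDH, the oxidase that forms uric acid, had the largest rise, from 3.27, 3.42 and 2.86 TPM to 12.6, 13.2 and 12.8 TPM (log2 change 1.73 ± 0.07). Several steps of purine synthesis rose by less: ADSL by 0.68, GART by 0.51, PPAT by 0.42 and IMPDH2 by 0.41. ABCG2, a membrane pump that exports uric acid among other compounds, fell by 0.63.

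Other amino acid enzymes moved in both directions. Their counts are read beside 33.7% raised and 11.3% lowered among the 16458 genes tested (3701 and 3704 genes under TMM). Several lie near those shares. In serine and one-carbon metabolism 7 of 16 genes rose and 2 fell (6 and 6 under TMM). PSPH, the last step of serine synthesis, rose by 1.00 and MTHFD1L, of mitochondrial folate metabolism, by 0.71, whereas the thymidylate synthase TYMS fell by 0.40. GOT1, the cytosolic aspartate transaminase, rose by 0.86, while GLUL, which makes glutamine, fell from 118 ± 7.21 to 82.5 ± 2.19 TPM. In methionine metabolism ADI1 of methionine salvage rose by 0.86 and the methionine synthase reductase MTRR by 0.63. Of 13 asparagine, glutamine and glutamate enzymes 7 rose and 2 fell (6 and 5 under TMM), of 16 methionine and cysteine genes 7 rose and 5 fell (6 and 7 under TMM), and of 14 arginine and proline genes 5 rose and 3 fell (2 and 4 under TMM). The proline enzyme PYCR1 rose by 0.50. Of 20 genes that break down branched-chain amino acids 6 rose and none fell, but under TMM 4 rose and 8 fell. KYAT1, a transaminase of kynurenine, was among the 20 genes lowered most, from 10.3 ± 0.791 to 3.39 ± 0.0676 TPM.

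The unfolded protein response rose almost as a whole. Of 30 members tested 26 rose and none fell (25 and 1 under TMM), 12 rose 2-fold or more, and the median log2 change was 0.90. HSPA5, the main ER chaperone BiP, stood at 904, 945 and 865 TPM in RPMI-1640 and 4261, 4050 and 4220 TPM in HPLM, a 4.62-fold difference (log2 change 2.21 ± 0.05, adjusted p = 3.91e-05). In each HPLM library its level was above that of GAPDH, the glycolytic enzyme often used as a reference, which measured 4077, 3920 and 4130 TPM there. SDF2L1, a partner of HSPA5, measured 27.2, 39.8 and 26.5 TPM and 126, 118 and 132 TPM, and RPMI-1640 library 2 was the highest of its group. The cochaperones DNAJB11 and DNAJC3 rose by 1.34 and 1.29, the exchange factor HYOU1 by 1.30, CRELD2 by 1.39 and the secreted ER protein MANF by 1.19. FICD, which modifies HSPA5 with AMP and is not on the list, stood at 7.47 ± 0.119 and 31.4 ± 0.784 TPM (log2 change 1.94 ± 0.04). SEL1L, of the membrane complex that returns misfolded proteins to the cytosol, measured 56.2, 54.0 and 49.3 TPM in RPMI-1640 and 147, 138 and 145 TPM in HPLM, its ligase SYVN1 rose by 0.96 and the channel protein DERL2 by 1.06. Its relative DERL1 was not called, at 96.4, 95.5 and 94.7 TPM and 98.5, 94.6 and 99.9 TPM, and was called lower under TMM. The stress sensors themselves rose: ERN1, which encodes IRE1, by 1.31, EIF2AK3, which encodes PERK, by 0.76 and ATF6 by 0.33. XBP1 rose from 194 ± 5.99 to 313 ± 10.1 TPM, a total that does not separate its spliced form.

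Not every gene of the secretory route did the same. Of 38 genes of ER entry and ER to Golgi transport 14 rose and 3 fell (10 and 18 under TMM). SEC61A1, the protein channel of the ER, rose by 0.69, SRPRB, of the receptor that docks ribosomes, by 0.76 and BET1, a fusion protein of the Golgi, by 0.80. KDELR3, a receptor that returns ER proteins from the Golgi, fell instead, from 74.2, 75.6 and 83.7 TPM in RPMI-1640 to 41.1, 38.7 and 40.6 TPM in HPLM (log2 change -0.94 ± 0.06). Of 29 glycosylation genes 19 rose and 1 fell (10 and 4 under TMM), among them GFPT1, the entry step of hexosamine synthesis, by 0.81 and ALG2 and ALG5, of the lipid-linked sugar chain, by 0.65 and 0.63. The single member that fell was OGA, which removes the O-GlcNAc sugar from proteins, from 90.4, 94.2 and 86.5 TPM to 56.9, 55.3 and 55.1 TPM. AGR2, an ER isomerase of mucus-forming cells, rose from 122 ± 2.90 to 286 ± 10.4 TPM.

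Cytosolic heat shock genes divided into a few large rises and many small or absent ones. Of 24 tested 15 rose and 1 fell (11 and 5 under TMM) and 6 rose 2-fold or more. HSPA6, an inducible HSP70 gene that is nearly silent in most resting cells, measured 7.16, 6.47 and 7.63 TPM in RPMI-1640 and 88.4, 86.7 and 93.6 TPM in HPLM. HSPH1, which recharges HSP70, stood at 18.8, 20.2 and 19.6 TPM and 62.5, 60.8 and 60.9 TPM (log2 change 1.61 ± 0.05), and the cochaperones DNAJB4 and DNAJB1 rose by 1.60 and 1.21. HSPA8, the constitutive HSP70 whose promoter holds 2 of the elements shown above, rose by 0.52, from 458 ± 14.7 to 657 ± 15.5 TPM. HSP90AB1, the constitutive HSP90 gene, at 2202 ± 112 and 2339 ± 57.9 TPM, was not called (adjusted p = 0.257), and its small change of 0.09 became -0.07 under TMM. The small heat shock protein gene HSPB1 was the member that fell, by 0.35. HSPA1A and HSPA1B are near-identical genes whose reads can be split between them, and both rose.

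The list of factors induced by stress, most of them secreted, had the highest median of the lists drawn, 1.26 over 9 members tested, of which 7 rose and 2 fell (also 7 and 2 under TMM). The 7 include NUPR1, described above, which is a chromatin protein. GDF15, which acts on appetite centres of the brain stem, stood at 47.5, 50.2 and 49.0 TPM in RPMI-1640 and 117, 114 and 126 TPM in HPLM (log2 change 1.26 ± 0.06, adjusted p = 1.56e-04). INHBE, which encodes activin E, measured 1.11, 1.55 and 1.01 TPM and 6.58, 8.40 and 7.03 TPM. ADM2 and ADM, which encode the vasodilator peptides intermedin and adrenomedullin, rose by 1.26 and 1.08, and the neuroendocrine secretory protein VGF by 0.96. IGFBP3, a binding protein of insulin-like growth factors, fell by 0.49 and ANGPTL4, an inhibitor of lipoprotein lipase, by 0.29. FGF21, STC1, STC2, INHBA and IGFBP1 were below the filter on low values. Regulators of the growth kinase mTORC1 were mixed: 13 of 24 rose and 3 fell (8 and 7 under TMM). SESN2, which signals low leucine to mTORC1, stood at 27.6, 33.5 and 27.7 TPM and 93.8, 93.1 and 104 TPM, and FLCN, which acts on the RAG proteins, rose by 0.96 and RRAGC, one of them, by 0.71. SESN1, a relative of SESN2, and DEPTOR, an inhibitor that binds mTOR, each fell by 0.64.

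Genes linked to NRF2, the factor that guards against oxidants, split in HPLM. Of 31 tested 10 rose and 18 fell (7 and 20 under TMM), with 2 raised and 4 lowered 2-fold or more and a median of -0.29. NFE2L2, which encodes NRF2, rose from 95.2, 92.9 and 104 TPM to 172, 164 and 176 TPM (log2 change 0.80 ± 0.06). HMOX1, the heme oxygenase that headed the raised genes, stood at 39.2, 35.9 and 40.2 TPM in RPMI-1640 and 572, 554 and 591 TPM in HPLM. The quinone reductase NQO1, a standard readout of NRF2, fell from 1395, 1405 and 1261 TPM to 813, 765 and 811 TPM (log2 change -0.76 ± 0.06, adjusted p = 6.44e-04). The thioredoxin reductase TXNRD1 fell by 0.54, the glutathione reductase GSR by 0.40, GCLC, the catalytic subunit of the first step of glutathione synthesis, by 0.65 and the epoxide hydrolase EPHX1 by 0.64. GCLM, the regulatory partner of GCLC, rose by 0.71, so the subunits moved apart. Of the pentose phosphate pathway, TKT, a transketolase, fell by 0.64 and PGD, a dehydrogenase, by 0.53. The aldo-keto reductases AKR1C1, AKR1C2 and AKR1C3, whose similar sequences can share reads, fell by 2.29, 1.41 and 2.20, while AKR1B1, the aldose reductase, rose by 0.49. Over the 6 libraries AKR1C3 spanned 12.9 to 70.8 TPM. AKR1C1, at 0.604 to 7.88 TPM, and AKR1C2, at 0.211 to 3.08 TPM, reached down below the filter of 1 TPM.

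**Figure D4:**
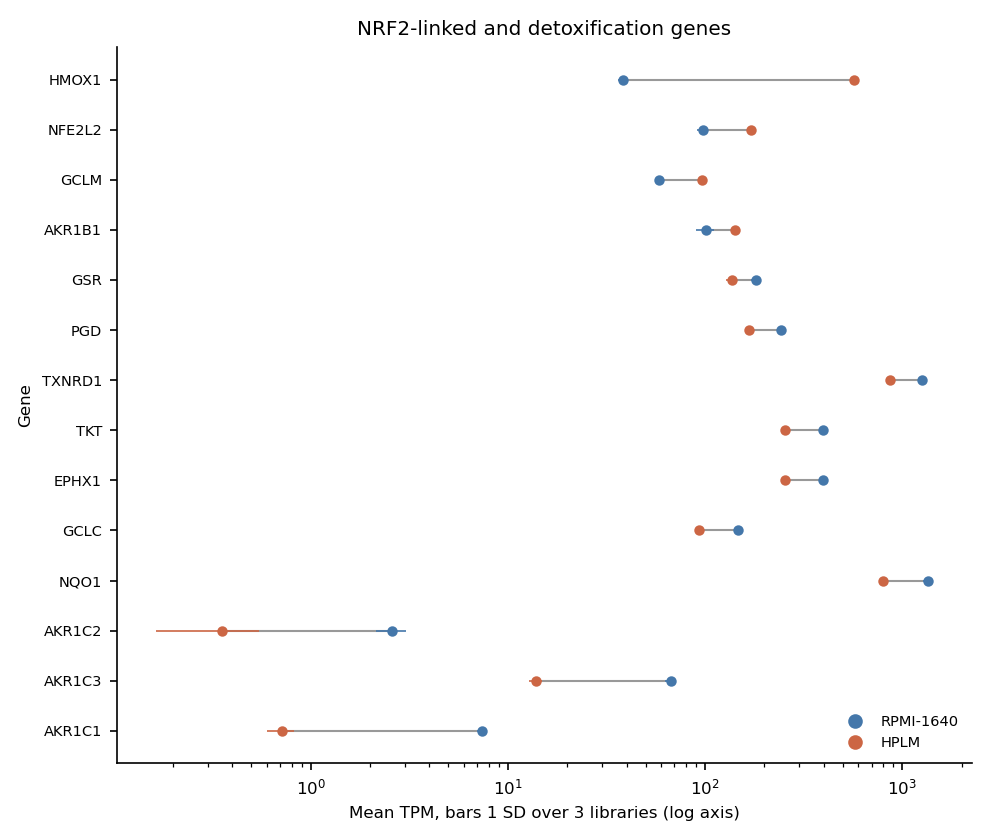
Mean TPM (horizontal log axis, bars 1 SD over 3 libraries) of the 14 NRF2-linked genes named in the text, of 31 tested, in RPMI-1640 (blue) and HPLM (orange), ordered by log2 change. HMOX1 at the top rose while the genes in the lower part, GSR and NQO1 among them, fell.

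Metallothioneins and zinc carriers leaned upward. Iron genes, HMOX1 among them, were called on the TPM scale in shares near those of all genes. Of 10 metallothioneins and zinc carriers tested 7 rose and 1 fell (6 and 2 under TMM). MT1X, a metal-binding protein, stood at 14.6, 16.9 and 17.8 TPM in RPMI-1640 and 37.6, 35.9 and 38.2 TPM in HPLM, MT2A rose from 196 ± 14.5 to 308 ± 4.13 TPM, and the zinc exporter SLC30A1 rose by 0.68. SLC39A14, which takes up zinc and iron, rose by 1.22. Metallothionein genes are alike in sequence, so reads may be shared among them. In iron handling 5 of 17 rose and 2 fell (3 and 8 under TMM), beside 33.7% raised and 11.3% lowered among all genes tested. ACO1, an iron-sensing RNA-binding protein, rose by 0.67, whereas BLVRA, which reduces the biliverdin that heme oxygenase makes, fell by 0.58. TCN1, a carrier of vitamin B12, was among the genes lowered most, from 37.8, 35.4 and 40.1 TPM to 11.9, 12.5 and 10.7 TPM.

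Genes of sugar metabolism moved in both directions. HK2, the inducible hexokinase, measured 103, 102 and 89.3 TPM in RPMI-1640 and 209, 197 and 206 TPM in HPLM, and the glucose carriers SLC2A1 and SLC2A3 rose by 0.71 and 0.64. SLC2A12, another carrier, fell from 7.17, 7.56 and 6.58 TPM to 2.08, 2.11 and 1.31 TPM (log2 change -1.53 ± 0.13). The hexokinase HK1 was not called, at 86.0, 88.3 and 76.7 TPM and 74.6, 74.9 and 73.7 TPM, and was called lower under TMM. Of the 26 genes of glucose and lactate metabolism 6 rose and 14 fell (4 and 19 under TMM), with a median of -0.22. Among enzymes along the path LDHA, which forms lactate, fell by 0.44, TPI1 by 0.33 and PKM by 0.31. PFKFB4, which tunes glycolysis, fell by 0.57. The lactate carrier SLC16A1 rose by 2.11. TXNIP and ARRDC4, targets of the glucose-sensing factor MondoA, were among the 20 genes lowered most, TXNIP from 1213, 1237 and 1137 TPM to 51.4, 48.0 and 48.8 TPM. KLF10, another gene that responds to glucose, fell by 0.65.

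Around the citric acid cycle 7 of 34 genes rose and 9 fell, and under TMM 6 rose and 22 fell. Among those that rose were PC, the pyruvate carboxylase that feeds the cycle, by 0.67, the pyruvate carrier subunit MPC1 by 0.72 and the phosphatase PDP1, which activates pyruvate dehydrogenase, from 85.2, 84.2 and 84.1 TPM to 153, 142 and 151 TPM. PDK3, a kinase that inhibits that enzyme, fell by 0.58. IDH2 fell by 0.58, SDHA by 0.40, the citrate synthase CS by 0.31 and the citrate carrier SLC25A1 by 0.51. None of the 42 nuclear-encoded subunits of the respiratory chain rose and 6 fell (21 fell under TMM), with a median of -0.03 against 0.14 over all genes. Of the 13 mitochondrially encoded proteins 12 fell and the other, MT-CO1, measured 22561 ± 3270 and 18255 ± 2699 TPM (adjusted p = 0.143). MT-ND6 fell from 6680, 6052 and 7806 TPM to 3271, 3917 and 3500 TPM. MT-ND6 is transcribed from the opposite strand to most of them, which libraries without strand do not separate. Of 23 genes of mitochondrial stress, import and dynamics 9 rose and 2 fell (4 and 7 under TMM), beside 33.7% raised among all genes tested. The chaperone HSPA9 rose by 0.78 and the protease LONP1 by 0.59, while the chaperonin HSPE1 was not called, at 260.1, 278 and 253 TPM and 247, 236 and 240.0 TPM, and was called lower under TMM. The hypoxia list had 7 raised and 7 lowered of 22 (6 and 8 under TMM), with 2 raised and none lowered 2-fold or more. VEGFA, the angiogenic factor, rose from 47.7, 49.0 and 48.0 TPM to 134, 132 and 139 TPM, and ADM, the other gene raised 2-fold, rose by 1.08. HIF1A, the oxygen-regulated factor, rose from 501 ± 8.33 to 906 ± 33.4 TPM, while EGLN3, which its protein is known to induce, fell by 0.58. MIR210HG, a host of a hypoxia-induced microRNA that is on the list of long noncoding RNAs, fell by 1.08.

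**Figure D5:**
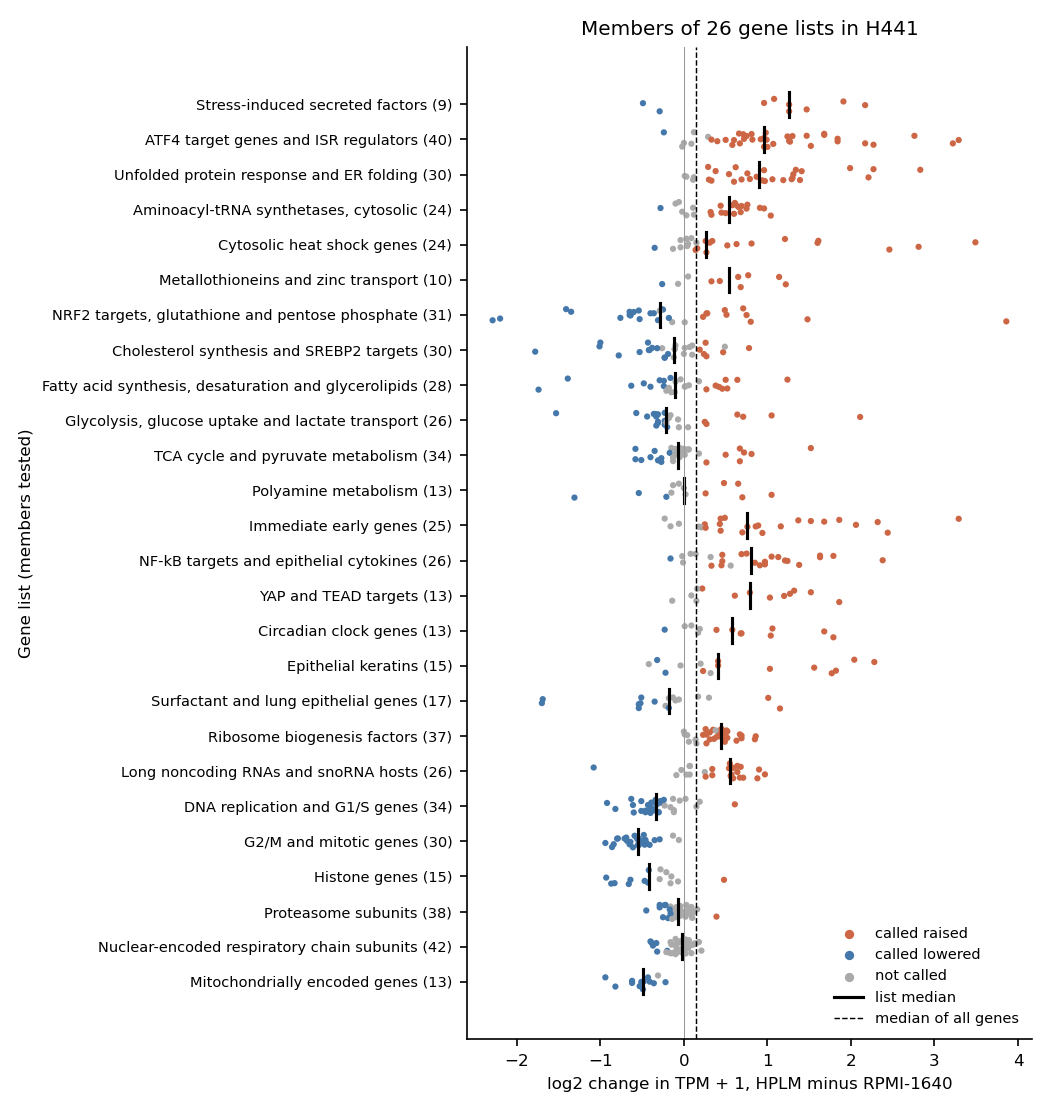
Log2 change in TPM + 1 (horizontal axis) of each tested member of 26 gene lists, with members called raised in orange, called lowered in blue and not called in grey. Black bars are list medians and the dashed line is the median of all genes at 0.14; the medians of the secreted stress, ATF4 and UPR lists lie to its right and those of the replication, mitosis and mitochondrial lists to its left.

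Sterol genes leaned downward, and fatty acid genes were split between directions. Of 30 sterol genes 6 rose and 13 fell (2 and 20 under TMM). SREBF2, which encodes the sterol-regulated factor SREBP2, fell by 0.53. INSIG1, which holds SREBP proteins in the ER and is itself their target, measured 85.5, 86.4 and 88.3 TPM and 25.0, 25.0 and 23.7 TPM. SQLE and FDPS of the same pathway fell by 0.41 and 0.42. ABCA1, which exports cholesterol, rose by 0.78 and PMVK, of the mevalonate pathway, by 0.47. In fatty acid synthesis 8 of 28 genes rose and 9 fell (7 and 17 under TMM). FASN, the fatty acid synthase, fell by 0.48, the activating enzyme ACSL3 by 0.63 and the desaturase FADS1 by 0.40, and SCD, which makes monounsaturated fatty acids, from 182, 177 and 158 TPM to 51.9, 51.0 and 49.8 TPM, whereas SREBF1, the factor of fatty acid synthesis, rose by 0.42. PLIN2, which coats lipid droplets, rose from 40.3, 41.2 and 38.7 TPM to 99.6, 92.8 and 96.3 TPM (log2 change 1.24 ± 0.05), and the phosphatidate phosphatase LPIN2 rose by 0.64. Of the lipoprotein receptor family LRP8 fell by 0.80 and LRP11 by 0.70, while the Wnt coreceptor LRP6 rose by 0.68. In all, 1 of the 14 receptors and related genes rose and 6 fell (1 and 9 under TMM). Of 21 genes of fatty acid oxidation 5 rose and 4 fell (3 and 12 under TMM), HADHB, of the last steps of the cycle, by 0.42 upward and CPT2, of the entry into mitochondria, by 0.40 downward. None of 5 ketone body genes was called, and 3 fell under TMM.

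Immediate early genes, which growth factors and stress switch on within minutes, were higher after the 7 days in HPLM. Of 25 tested 20 rose and none fell (18 and 2 under TMM), 9 by 2-fold or more, and the median was 0.76. FOSB stood at 1.41, 1.28 and 1.29 TPM in RPMI-1640 and 9.68, 11.8 and 10.6 TPM in HPLM, FOS rose from 40.9 ± 0.583 to 108 ± 4.22 TPM and FOSL2 by 1.16. SRF, a factor that drives many of them, rose by 0.94 and JUN by 0.89. Genes on the list of ERK feedback regulators rose too, 14 of 18 with 1 lowered (13 and 1 under TMM). The member lowered was the transcription factor ETV4, by 0.47. DUSP1, a phosphatase of MAP kinases, measured 10.8, 12.9 and 11.7 TPM and 52.7, 57.0 and 56.8 TPM (log2 change 2.14 ± 0.07), DUSP5 rose by 1.57, SPRY4 by 1.24, and ERRFI1, which binds and inhibits the EGF receptor, rose from 828, 853 and 786 TPM to 2070, 1945 and 2046 TPM. Ligands of that receptor family went up: AREG from 275, 271 and 268 TPM to 653, 579 and 614 TPM, HBEGF from 7.88, 7.21 and 7.93 TPM to 65.5, 59.0 and 61.9 TPM, EREG by 0.87 and BTC by 0.60, and ADAM17, the protease that releases several of them, by 0.57. EGF itself fell, from 8.59, 8.05 and 7.82 TPM to 3.98, 3.67 and 3.31 TPM, as did ERBB3, a sister receptor of EGFR, by 0.73 and LRIG1, a brake on these receptors, by 0.42. The receptor EGFR rose by 0.37. In all 7 of the 12 genes tested rose and 4 fell, and the counts were the same under TMM.

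Inflammatory signals of epithelial cells rose as well. Of 26 targets of NF-kB and epithelial cytokines 19 rose and 1 fell (16 and 3 under TMM), 9 by 2-fold or more, with a median of 0.80. CSF2, a growth factor of macrophages and granulocytes, stood at 2.03, 1.98 and 1.35 TPM in RPMI-1640 and 15.2, 13.1 and 12.1 TPM in HPLM, and IL23A, a subunit of interleukin 23, at 10.9, 11.2 and 11 TPM and 42.1, 36.4 and 44.0 TPM. CXCL2 and CXCL8, which attract neutrophils, rose by 1.63 and 0.97, LIF by 1.21, and PTGS2, the inducible cyclooxygenase, by 1.38. IL6 reached 6.09, 5.43 and 6.36 TPM from 1.47, 1.07 and 1.22 TPM. TNFAIP3 and BIRC3, which limit NF-kB signalling and cell death, rose by 1.13 and 0.91. TNF, IL1A, IL1B and CSF3 were below the filter. Interferon-stimulated genes did not share this direction, with 6 of 31 raised and 11 lowered (4 and 15 under TMM): OAS3, a sensor of double-stranded RNA, fell by 0.59 and IFI44 by 0.50. CD274, which encodes the checkpoint ligand PD-L1, rose from 32.5, 36.1 and 31.6 TPM to 114, 104 and 107 TPM (3.25-fold, log2 change 1.67 ± 0.07, adjusted p = 1.40e-04). Of the genes of antigen presentation HLA-E fell by 0.53 and TAPBP, of the peptide-loading complex, by 0.37. In all, of 16 such genes, CD274 included, 3 rose and 3 fell (2 and 7 under TMM).

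Targets of mechanical and matrix signals changed next to these. Of 13 targets of YAP and TEAD 9 rose and none fell (8 and 1 under TMM). CCN1, a matrix protein, measured 278, 287 and 270.0 TPM in RPMI-1640 and 836, 764 and 794 TPM in HPLM, AJUBA, which binds the Hippo kinase LATS, rose by 1.32, and F3, the tissue factor that starts clotting, rose by 1.03. In TGF-beta signalling 11 of 16 rose and 1 fell (7 and 3 under TMM). PMEPA1, a feedback inhibitor, rose from 18.7, 17.9 and 19.6 TPM to 49.1, 46.5 and 50.1 TPM, TGFBI by 0.78 and SMAD7 by 0.77, while ID1, a target of the BMP branch, fell from 597, 611 and 658 TPM to 324, 342 and 348 TPM. JAG1, a Notch ligand, stood at 6.95, 7.08 and 6.47 TPM and 20.2, 19.1 and 18.3 TPM. The Notch target HEY1 rose by 0.83 and HES1, another, fell by 0.42, and of 12 Notch and Wnt genes 5 rose and 2 fell (4 and 4 under TMM). Clock genes formed a further group, with 8 of 13 raised and 1 lowered, as also under TMM. PER2 measured 7.89, 8.46 and 8.51 TPM and 32.5, 29.5 and 31.4 TPM (log2 change 1.79 ± 0.06, adjusted p = 8.61e-05), NFIL3 rose by 1.68, TEF by 1.06 and PER1 by 1.04. The hour of harvest is not given in the sources used here.

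The epithelial surface changed gene by gene. The surfactant protein genes SFTPA1 and SFTPA2, near-identical neighbours on chromosome 10, both fell, SFTPA2 from 953, 982 and 998 TPM in RPMI-1640 to 306, 289 and 313 TPM in HPLM. SFTPB, the surfactant protein that spreads lipid films, rose in the same libraries, from 2.61, 1.84 and 1.78 TPM to 5.68, 5.35 and 6.31 TPM (log2 change 1.15 ± 0.12). NKX2-1, the factor of lung identity known to drive surfactant genes, was not called at 174 ± 0.109 and 162 ± 7.76 TPM (log2 change -0.10, adjusted p = 0.161), but was called lower under TMM, at -0.26. Of 17 lung genes tested 2 rose and 8 fell (2 and 13 under TMM): HOPX, of type I alveolar cells, fell by 0.54, the water channel AQP4 by 0.52 and SCNN1B, a subunit of the sodium channel, by 0.54. CEACAM5 and CEACAM6, surface glycoproteins of tumours, fell, the latter from 72.0, 73.8 and 73.4 TPM to 33.0, 27.5 and 31.8 TPM. Of 15 genes of keratins and vimentin tested 9 rose and 2 fell (8 and 3 under TMM). KRT7, a keratin of simple epithelia, rose from 991, 1028 and 931 TPM to 1997, 1982 and 2058 TPM, and KRT80 from 69.5, 74.2 and 66.5 TPM to 206, 204 and 215 TPM. KRT81 and KRT86, hair keratins with nearly the same sequence, rose by 2.28 and 2.04, and the wound-associated KRT16 by 1.82, while KRT4 fell by 0.32.

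Junctions, matrix and proteases also moved in both directions. CLDN1, a barrier claudin, stood at 15.3, 19.2 and 19 TPM in RPMI-1640 and 69.9, 62.3 and 69.6 TPM in HPLM (log2 change 1.86 ± 0.10, adjusted p = 2.37e-04). CLDN4 fell from 169, 178 and 149 TPM to 101, 95.3 and 106 TPM, CLDN10 fell by 0.66 and CLDN8 by 2.32, while the scaffold TJP1 and the cadherin CDH1 rose by 0.41 and 0.36. In all, of 20 junction genes 5 rose and 6 fell (4 and 12 under TMM). LAMA3 and LAMB3, laminin chains of the epithelial basement membrane, rose by 1.22 and 0.87. ITGA6, a chain of a laminin receptor, rose by 0.61, ITGA2, which binds collagen, by 0.66, fibronectin FN1 by 1.06 and tenascin TNC by 0.96. COL12A1 fell by 1.08. Of the plasminogen activators PLAU, the urokinase, rose by 0.73 and PLAT, the tissue type, fell from 141, 139 and 139 TPM to 69.6, 66.3 and 72.8 TPM. MMP9, a secreted gelatinase, stood at 9.56, 6.18 and 8.43 TPM and 63.4, 65.1 and 68.2 TPM, and MMP14, a membrane protease, fell by 0.53. Of 21 adhesion and matrix genes 10 rose and 3 fell (8 and 8 under TMM), and of 15 proteases and inhibitors 4 rose and 4 fell (4 and 6 under TMM). LCN2, which binds bacterial iron carriers, rose from 92.0 ± 6.76 to 237 ± 6.25 TPM, and S100A9, a calcium-binding protein of inflamed epithelium, fell by 0.88. SPRR2D, of the cornified envelope of skin, rose from 2.74, 4.62 and 3.77 TPM to 37.5, 35.6 and 39.4 TPM, and of the 22 cornified envelope and S100 genes tested 6 rose and 6 fell (4 and 9 under TMM). The surface mucin MUC21 fell by 0.71, and of 9 genes of mucins and their processing 2 rose and 2 fell (2 and 4 under TMM). Among ion carriers ATP2B1, a calcium pump of the surface membrane, rose from 26.2, 26.5 and 24.3 TPM to 61.4, 58.1 and 56.9 TPM and the phosphate carrier SLC20A2 rose by 0.74, while ATP1B1, of the sodium pump, fell by 0.60. Of those 24 genes 8 rose and 7 fell (8 and 10 under TMM).

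Genes of cell division were lower in HPLM, by modest amounts. None of 30 mitotic genes rose and 28 fell (30 under TMM), with a median of -0.55 and none past 2-fold. PTTG1, which guards the separation of chromosomes, fell from 204, 210.2 and 207 TPM to 109, 103 and 111 TPM, KIF20A by 0.86, ASPM by 0.84, CDC25C by 0.80 and AURKA by 0.71. Of 34 genes of DNA replication 24 fell and 1 rose (30 and 1 under TMM). PCNA, the sliding clamp of replication, stood at 225, 238 and 234 TPM in RPMI-1640 and 126, 112 and 130.1 TPM in HPLM (log2 change -0.92 ± 0.07, adjusted p = 5.31e-04). E2F2 fell by 0.82, CCNE1 by 0.63 and the helicase subunit MCM6 by 0.60, whereas CDC6, which loads that helicase, was the single member that rose, by 0.61. Of 15 histone genes whose transcripts reached the filter 8 fell and 1 rose, while under TMM 14 fell and none rose. H2AX, which marks DNA breaks when phosphorylated, fell by 0.93 and the linker histone H1-2 by 0.87. Most histone messages carry no poly(A) tail, so the libraries hold only part of them. The inhibitors of cyclin-dependent kinases parted: CDKN1A, which encodes p21, rose by 0.61 and CDKN2B by 0.61, while CDKN2C and CDKN2D fell by 0.92 and 0.76, and of 16 genes of the G1 phase 7 rose and 5 fell (5 and 6 under TMM). Of 25 targets of p53, 14 rose and 7 fell (12 and 7 under TMM). TNFRSF10B, a death receptor of the ligand TRAIL, rose from 56.0, 55.5 and 48.9 TPM to 124, 119 and 121 TPM and PMAIP1, which promotes cell death at mitochondria, rose by 0.79, whereas FAS, another death receptor, fell by 0.56, DDB2, of DNA repair, by 0.54, and TNFSF10, which encodes TRAIL, from 15.8 ± 0.452 to 4.98 ± 1.14 TPM. Of 22 genes of the BCL2 family and death receptors 7 rose and 5 fell (6 and 7 under TMM).

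Ribosome biogenesis went against this direction. Of 37 factors 30 rose and none fell (24 and 2 under TMM), with a median of 0.44. RRN3, which recruits RNA polymerase I, rose by 0.86, POLR1B, a subunit of it, by 0.85, and WDR43 and RRP12, of ribosome assembly, by 0.67 and 0.63. MYC, a factor known to drive such genes, measured 203, 214 and 209 TPM and 680.0, 639.7 and 700.5 TPM. Ribosomal protein genes rose in 26 of 31 with none lowered, but in 12 of 31 under TMM, and RPL10A, for one, rose by 0.47. Host transcripts of small nucleolar RNAs, several of which share the start motif of ribosomal protein genes, rose too, and of the 26 long noncoding RNAs on the list that holds them 18 rose and 1 fell (16 and 2 under TMM). ZFAS1 stood at 274, 276 and 239.6 TPM in RPMI-1640 and 435, 426 and 428 TPM in HPLM, GAS5 rose by 0.67 and SNHG5 by 0.68. On the TPM scale, 5.44% of 2446 long noncoding genes and 2.19% of 11923 protein-coding genes rose 2-fold or more. So did 3.60% of 1249 pseudogenes and 5.12% of 840 genes of other or no type, beside 2.93% of all genes tested. Under TMM 323 genes of all types rose that far, in place of 482. Translation factors had 20 of 37 raised and 5 lowered (11 and 9 under TMM): EIF1, which selects start codons, rose by 0.69 and EIF4EBP2, a repressor of initiation, fell by 0.60. The splicing kinase CLK1 rose from 21.2, 21.9 and 21.9 TPM to 47.2, 46.8 and 46.3 TPM and CLK4 by 0.72, while the splicing factor SRSF2 fell by 0.50, and of the 28 splicing and RNA-binding genes 15 rose and 2 fell (10 and 6 under TMM).

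Systems of protein and membrane turnover did not move as blocks. Of 36 autophagy genes 12 rose and 6 fell (7 and 11 under TMM), yet MAP1LC3B, which coats autophagosomes, rose from 76.5, 80.3 and 71.5 TPM in RPMI-1640 to 211, 194 and 207 TPM in HPLM (log2 change 1.41 ± 0.06, adjusted p = 1.55e-04) and SQSTM1, a receptor of its cargo, from 148, 157 and 151 TPM to 334, 322 and 348 TPM. MAP1LC3B2, a near-identical copy of MAP1LC3B that may share its reads, stood at 0.646 ± 0.114 and 2.05 ± 0.466 TPM. ATG9A fell by 0.44. Of 38 proteasome genes only NFE2L1, the factor that induces the others, rose, by 0.39, and 10 fell (1 and 26 under TMM), PSMD1 by 0.45. Among 39 lysosomal genes 8 rose and 6 fell (4 and 16 under TMM), PSAP by 0.54 upward and GLA, the galactosidase A, by 0.74 downward. Few genes of the endocytic machinery, through which lipid nanoparticles are known to enter cells, passed 2-fold. So did few of all genes tested, 2.93% raised and 0.656% lowered. The counts were 1 of 28 clathrin, 1 of 9 caveolar, 0 of 32 Rab and 0 of 21 other uptake genes. Of 28 clathrin genes 10 rose and 1 fell (5 and 12 under TMM), and SNX18, which bends membranes, alone passed 2-fold, from 29.7, 30.6 and 28.9 TPM to 73.2, 67.3 and 70.6 TPM, and the epsin EPN3 fell by 0.44. Among 9 caveolar genes 5 rose and none fell (4 and 2 under TMM), CAVIN2 from 30.9 ± 1.33 to 66.5 ± 4.69 TPM. Of 32 Rab proteins and partners 12 rose and 4 fell (6 and 13 under TMM). RAB27A and RAB27B, which act in the release of vesicles, fell by 0.60 and 0.54, while EEA1, of early endosomes, rose by 0.43. Of 21 genes of uptake without clathrin 5 rose and 4 fell (3 and 11 under TMM), with PAK1, a kinase of membrane ruffles, lowered by 0.40 and ARF6, a small GTPase of the surface, by 0.29.

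Detoxifying enzymes outside the NRF2 list gave a mixed picture. Of 14 aldehyde and alcohol dehydrogenases 5 rose and 1 fell (4 and 3 under TMM). ALDH3B1, which oxidizes lipid aldehydes, rose from 34.1, 33.2 and 34.4 TPM in RPMI-1640 to 68.3, 66.9 and 70.3 TPM in HPLM, and ALDH3A2, which oxidizes fatty aldehydes, fell from 127, 132 and 122 TPM to 75.0, 68.4 and 71.1 TPM. Neither gene's values overlapped between the media, and both were picked from the genes called. Of 13 xenobiotic enzymes and exporters 2 rose and 6 fell (1 and 8 under TMM). TIPARP, a target and repressor of the aryl hydrocarbon receptor, rose from 54.5, 53.7 and 58.4 TPM to 131, 125 and 129.7 TPM, while CYP24A1, which inactivates vitamin D, fell by 0.46 and the sulfotransferases SULT1A1 and SULT2B1 by 0.51 and 0.56. Of 7 taurine and creatine genes 2 rose and 2 fell, and under TMM none rose and 2 fell. SLC6A8, the carrier of creatine, fell by 0.59. Of 7 targets and partners of MondoA and ChREBP tested, 3 rose and 3 fell (1 and 3 under TMM).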

How the data were processed

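Poly(A) RNA of H441 cells was sequenced after 7 days in either medium. Per the submitters' processing notes, the tools named were Trimmomatic 0.36, STAR 2.5.2b, Subread 1.5.2 and DESeq2 (version not given), with build GRCh38. The annotation is not given in the sources used here. Per the labels' protocols, the library kit keeps no strand, so antisense and overlapping genes are not separated. Of the named genes, 123 of 309 share exon bases with another gene in GENCODE. The authors deposited TPM values, which are scaled by length and to a fixed total. They also deposited gene counts divided by size factors, treated here as a normalized signal. Their fold changes and p-values were not used. Whole reads were recovered from the deposited size-factor-scaled counts (100% of values within 0.01 of a whole number) and served alternatives only.

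Genes with at least 1 TPM in 3 of 6 libraries were tested with limma 3.58.1 (R 4.3.3) on log2(TPM + 1), a scale that understates the change of low genes, with Benjamini-Hochberg adjustment over 16458 genes and a threshold of 0.05. Log2 changes and SEs in the text come from this fit, and other values are TPM. Alternatives used TMM factors, edgeR 4.0.16, DESeq2 1.42.0, other pseudocounts and filters, and each library left out. On simulated data with 200 changed genes among 16458, the fit found 75% of those changed 2-fold and 49% of those changed 1.5-fold, with 6.77% false calls among the genes called. The 200 are a far smaller share than that of the genes called in the real data, so these rates need not hold there.

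The comparison and the 77 gene lists were chosen with earlier results of these data known. The rule for named genes took 20 genes per direction with the largest changes at a mean of at least 5 TPM and, from each list, up to 5 called members with the largest change and the 2 highest members not called, and a set of fixed names. A further 86 genes in the text were chosen after their values were seen, as illustrations, and 20 genes whose call was lost under an alternative were left out of the report. The rule takes 506 genes, of which 223 are named in the text and 283 are not. Of its 146 genes not called, 6 are named, so the named genes lean toward called ones and their share of calls is no estimate of the share among all genes.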

Additional observations from a re-analysis of the deposited data

How the results depend on the processing

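Of 7404 genes called, 5546 rose and 1858 fell, and 482 rose and 108 fell 2-fold or more. The split between directions moved with the scaling. Lowered genes numbered 3704 under TMM, 3355 without mitochondrially encoded genes, 4171 with median centring, 3800 on the scaled counts, 4190 with edgeR and 3775 with DESeq2, and raised genes numbered 3208 with median centring and 3662 with DESeq2. The matching counts lowered 2-fold or more were 182, 192, 226, 252, 306 and 290, and median centring left 281 raised 2-fold or more. A pseudocount of 0.1 gave 784 raised and 185 lowered 2-fold or more, a pseudocount of 5 gave 168 and 29, and a minimum of 5 TPM left 68 lowered 2-fold or more among fewer genes tested. Leaving out 1 library gave 4135 to 4985 raised and 1233 to 1666 lowered genes, the fewest lowered without RPMI-1640 library 1. The cause was not tested. The numbers of the libraries do not pair them (correlation of deviations -0.03, 0.02 and 0.00), and with a replicate block 4199 genes rose and 1284 fell. Under TMM, edgeR, DESeq2, the scaled counts, median centring and the removal of mitochondrially encoded genes, the change of ATF4 was -0.04, -0.03, -0.04, -0.04, -0.07 and -0.02, and that of HSP90AB1 was -0.07, -0.06, -0.07, -0.07, -0.09 and -0.05. In the same order that of DERL1 was -0.13, -0.12, -0.13, -0.13, -0.15 and -0.10, called lower in all but the last. Under these settings NKX2-1 was called lower, at -0.24 to -0.29, as were HSPE1 and HK1. HK1 was also called lower by limma-trend and without RPMI-1640 library 3. MT-CO1 was called lower by edgeR (-0.46) and DESeq2 (-0.47), and ATF4 was called higher by limma-trend. GAPDH lost its call with the replicate block and without HPLM library 1 or 2 or RPMI-1640 library 1 or 2. HSP90AB1 was called lower by DESeq2. Of the 7404 genes called, 2701 (36.5%) lost the call when at least 1 of the 6 libraries was left out, as did 244 of 898 called list members (27.2%) and 76 of the 590 genes called at 2-fold or more. The genes named in the report were partly chosen for stability: 20 genes that had lost their call under at least 1 alternative, 15 of them with 1 library left out, were taken out of the report after those results were seen, and stay in the counts of their lists. LAMP3 (log2 change 1.01) was the one among them past 2-fold. That the other called genes in the report kept their calls therefore says nothing about how stable calls were in general. The depth of 15.2 to 24.3 M reads and 3 libraries per medium may limit what small changes could be called, which was not tested. The simulated recovery of 49% at 1.5-fold cannot show it. Depth and number of libraries were not varied there, and 200 genes were changed, against 7404 called here.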
